A study of Mus musculus with 14 samples.

Results

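The sites described here are the CRTC2 peaks of untreated 3T3-L1 cells that overlapped, by at least 1 bp, a CRTC2 peak in each of the 3 treated libraries. There were 1353 such sites among the 5188 CRTC2 peaks of control cells (26.1%), and among 33769 separate CRTC2 loci when the 4 lists were merged. They are called shared sites below. Of the other control peaks, 1208 were called again in 1 or 2 of the treated lists and 2627 in none. A further 2634 sites were called with all 3 treatments but not in control cells. The sites were chosen by measured values, namely the CRTC2 peak calls of the 4 libraries, so their CRTC2 tags are given as a description with no test.

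The study profiled 3T3-L1 cells, a mouse preadipocyte line, after 4 days of adipocyte differentiation. Control cells received neither agent. The treated cells received for 1 h either the adenylyl cyclase activator forskolin (FSK, 10 µM), the inflammatory cytokine TNFα (10 ng/ml), or FSK and TNFα together (FSK/TNFα). Each treatment had 1 library for CRTC2, 1 for NF-κB p65 and 1 for H3AcK27, and differences between treatments are therefore differences between single libraries. In control cells the H3AcK27 mark covered the start sites of 3 of 7 adipocyte marker genes (Pparg, Fabp4 and Lpl, but not Adipoq, Cebpa, Plin1 or Cidec). It covered 3 of 3 preadipocyte markers and 0 of 3 macrophage markers. The adipocyte label therefore rests on some of its defining genes only, and the share of undifferentiated cells was not measured.

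CRTC2 is a coactivator of the transcription factor CREB. It has no DNA-binding domain of its own and reaches chromatin through CREB, which recognizes the cAMP response element (CRE). In resting cells CRTC2 is phosphorylated by salt-inducible kinases and held in the cytoplasm, and cAMP signaling through protein kinase A releases it to the nucleus. Promoters of CREB target genes often carry the CRE close to the start of transcription.

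The full CRE is a palindrome, TGACGTCA, and the shorter form TGACG is enough for weaker CREB binding. The sequences below show, in capitals, the full palindrome at the 8 shared sites of best summed rank that contained it. It is also shown at Prkar1a, a PKA subunit gene. The short form follows at 3 strong sites, which are not the 3 of best rank that hold it. The H3f3b stretch holds a further TGACG left in lower case. All sequences were read from the GRCm38 reference, 5′ to 3′ on the strand named. A full element is shown with 30 bases and a short one with 29.
Ier2, immediate-early gene (chr8:84662879-84662908, plus strand): tatactgagagTGACGTCActgcaacacca
Fscn1, actin-bundling fascin (chr5:142960299-142960328, plus strand): cgtggccacggTGACGTCAtcctcctataa
Zbtb37, zinc finger gene (chr1:161035109-161035138, plus strand): gctttgcgtctTGACGTCAcgaagacctta
Errfi1, inhibitor of EGF receptor signaling (chr4:150855008-150855037, plus strand): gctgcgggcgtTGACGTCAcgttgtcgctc
Wsb1, ubiquitin ligase subunit (chr11:79254715-79254744, plus strand): ggtgtagtgggTGACGTCAgaccatcaggc
Ldha, lactate dehydrogenase (chr7:46845781-46845810, plus strand): ggctcccactcTGACGTCAgcgcggagctt
Plk2, polo-like kinase (chr13:110394971-110395000, plus strand): agcgctcgccgTGACGTCAcgaggccccgc
Ppp1r15a, stress-induced phosphatase subunit (chr7:45526262-45526291, plus strand): cggcgctgtgcTGACGTCAccggagaggcg
Prkar1a, PKA regulatory subunit (chr11:109650889-109650918, plus strand): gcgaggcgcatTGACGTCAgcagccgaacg
Malat1 site, nuclear long non-coding RNA (chr19:5802659-5802687, plus strand): tgcctgaatgccTGACGcagagcccggag
Polr2a, largest subunit of RNA polymerase II (chr11:69758641-69758669, plus strand): gaactggctgagTGACGccctttatagat
H3f3b, replacement histone H3.3 (chr11:116024536-116024564, minus strand): tctgtgacgcacTGACGcagcgtgcagcg

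The CRTC2 libraries held between 16438040 (FSK) and 31807394 (FSK/TNFα) tags. Shared sites made up 26.1% of the control list, 11.5% of the FSK list, 6.93% of the TNFα list and 9.55% of the FSK/TNFα list. The smallest overlap of a shared site with its treated peaks had a median of 109 bp. At the edge of the rule, the sites at Usb1, Dusp5 and Tmbim4 overlapped by 1 bp. Control peaks at Fastk, Ttc17 and Tti2 missed a treated peak by 1 bp and were left out. Of 673 control peaks missing from a single treated list, 298 were missing from FSK/TNFα, 278 from FSK and 97 from TNFα, and 42 had a peak of that list within 20 bp. Peaks with FSK or FSK/TNFα were called against input chromatin from FSK-treated cells, and those of the other lists against untreated input.

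CRTC2 tags at the shared sites were lowest in control cells and highest with TNFα (see the plot of tags by library). The authors scaled tags to 10000000 per library, and values on that scale are called normalized tags. The libraries come from bulk cells, where more cells with a bound site and more binding per cell cannot be told apart. In control cells the shared sites held a median of 13.2 normalized tags, with the middle 50% of sites between 10.6 and 17.5. The median was 22.5 with FSK (15.8 to 33.5), 32.9 with TNFα (22.7 to 47.2) and 21.7 with FSK/TNFα (15.4 to 31.4). Medians over all peaks of the same lists were 10.6, 13.4, 11.3 and 11.3. The share of a library's tags that lay in any CRTC2 peak had the same lowest and highest library. It was 0.62% in control, 1.94% with FSK, 3.10% with TNFα and 2.05% with FSK/TNFα. Differences at the shared sites were not separated from these differences between whole libraries. Control was the lowest library at 1061 shared sites (78.4%). TNFα was the single highest library at 980 (72.4%), FSK at 212, FSK/TNFα at 132 and control at 23.

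**Figure D1:**
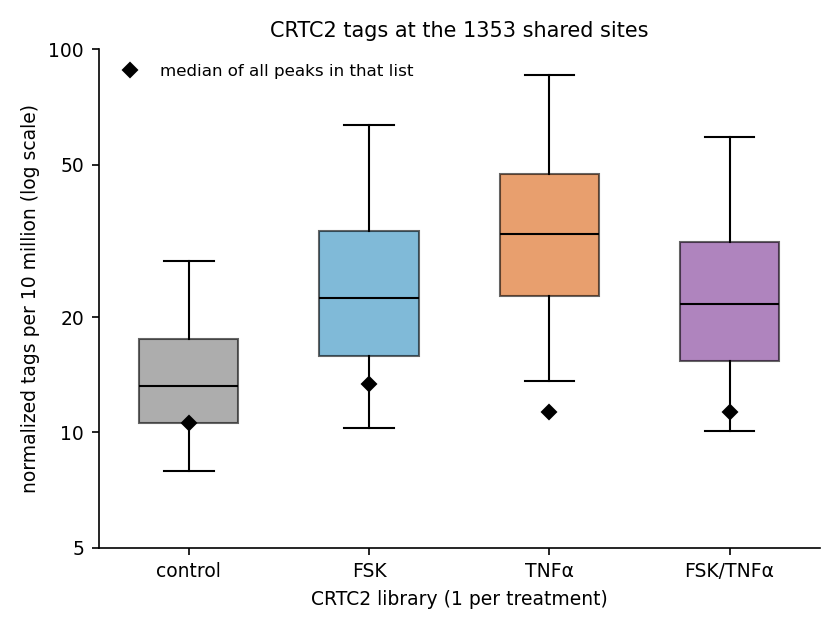
CRTC2 normalized tags (log axis) at the 1353 shared sites in each CRTC2 library, 1 library per treatment. Boxes span the middle 50% of sites with the median as a line, whiskers run from the 5th to the 95th percentile, and diamonds mark the median over all peaks of that list. The medians are 13.2, 22.5, 32.9 and 21.7, and the diamonds lie lower in each library.

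The order of the treated libraries differed between scales. At the shared sites, each position that HOMER counted carried a median of 2.25 tags in control, 1.68 with FSK, 2.89 with TNFα and 2.46 with FSK/TNFα. When the peak score, which counts at most 1 tag per position, was scaled to all tags of a library, FSK was highest at 968 sites (71.5%) and TNFα at 333. When the score was scaled to the library's tags counted in the same way, TNFα was highest at 985 sites (72.8%) and FSK at 255. Control was the highest library at 23, 5 and 16 sites on these 3 scales.

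With FSK, normalized tags were at least 2-fold above control at 514 shared sites (38.0%), against 32.5% of all 1835 control peaks shared with that list. With TNFα the count was 880 (65.04%), against 54.4% of 2279 peaks. With FSK/TNFα it was 466 (34.4%), against 29.4% of 1826 peaks. When each ratio was divided by the median ratio of all control peaks shared with that list, 128, 162 and 125 sites were at least 2-fold higher. With the score scaled to all tags of a library, the counts were 884, 589 and 315. Median ratios over control were 1.71, 2.41 and 1.62, and over all control peaks shared with the same list they were 1.62, 2.11 and 1.53. At least 2-fold lower values were found at 5, 1 and 3 shared sites, against 0.545%, 0.219% and 0.274% of the peaks shared with each list. These 3 comparisons use the same control library, and the peaks shared with each list include the shared sites themselves. Midpoints differed from control by a median of 30 bp, 30 bp and 31 bp, a distance that the overlap rule itself keeps small.

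Outside a few regions of high input described at the end, the strongest shared site by summed rank over the 4 lists lay at the start of Malat1, which encodes an abundant nuclear RNA (chr19:5802561-5802723). It held 72.5 normalized tags in control, 104 with FSK, 136 with TNFα and 118.5 with FSK/TNFα. Among the other sites of best summed rank, Srsf7, a splicing factor gene, had a site 60 bp downstream of its start with 47.7, 130.8, 154.9 and 93.4 normalized tags in the same order. At Polr2a, 46 bp downstream of the start, the values were 41.8, 124.1, 176.4 and 84.6. At Taf13, a subunit of the general factor TFIID, they were 33.9, 96.7, 119.7 and 96.5. At the ribosomal protein gene Rpl3 they were 38.7, 99.8, 113.7 and 91.2. At each of these promoters the control library was lowest and TNFα highest.

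The 15 best-ranked sites outside high-input regions also included the following genes. Junb, an AP1 subunit gene, held 44.5, 97.9, 151.5 and 90.9 normalized tags at its start site. Ing1, a chromatin regulator, held 41.8, 111.9, 136.7 and 90.9. Cdkn1a, the cell cycle inhibitor p21, held 32.3, 87.6, 112.2 and 81.7. Vegfa, an angiogenic growth factor, was highest with FSK, with 27.5 in control, 88.8 with FSK, 83.1 with TNFα and 81.7 with FSK/TNFα. Csrnp2, whose site lay in its first exon 257 bp past the start, held 41.8, 95.5, 99.0 and 81.1. Another 4 of the 15 lay beside short RNA genes.

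Sites with the largest ratios over control, among those with at least 20 normalized tags in the higher library, differed by treatment. Rhob, a small GTPase gene, had 9 normalized tags in control, 32.9 with FSK, 116.3 with TNFα and 50.9 with FSK/TNFα, a 12.9-fold ratio with TNFα. Jund had 7.94, 44.4, 87.3 and 82.4, or 10.995-fold with TNFα and 10.4-fold with FSK/TNFα. Vcam1, a leukocyte adhesion molecule of the endothelium and an NF-κB target, had 12.2, 22.5, 133.3 and 83, a 10.9-fold ratio with TNFα. Socs1, a feedback inhibitor of cytokine receptors, had 7.94, 37.1, 43.1 and 64.1 and was highest with FSK/TNFα. With FSK the largest ratios were 6.23-fold at a site -21204 bp from the start of Fam3b, where an Mx2 transcript is annotated to start, 5.91-fold at Sptan1 (spectrin) and 5.74-fold at Sertad1.

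By the same rule, the lowest ratios were found at sites that lost tags with 1 or more treatments. Col1a2, a collagen gene, held 24.9 normalized tags in control, 12.8 with FSK, 32.1 with TNFα and 13.8 with FSK/TNFα. Creb3l2, a membrane-bound relative of CREB, held 22.8, 12.8, 30.2 and 14.8. Bri3 held 20.7, 12.2, 28.7 and 17.9. These 3 were lower with FSK and higher with TNFα. Efna1, an ephrin ligand gene, went the other way, with 24.9 in control, 30.4 with FSK, 19.6 with TNFα and 32.1 with FSK/TNFα. Rpap1 held 24.9, 15.8, 28 and 13.8, and BC003965 held 20.1, 24.9, 35.5 and 11.9. Mknk2 held 23.3, 18.3, 18.5 and 25.5. The site on chromosome 18 at the start of the non-coding gene Epb41l4aos held 20.1, 14.6, 15.5 and 17.6, below control in all 3 treated libraries.

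Most shared sites were promoter sites. A promoter was taken as 1000 bp upstream to 100 bp downstream of a protein-coding start site. By that measure 1212 of 1353 shared sites (89.6%, 95% Wilson interval 87.8% to 91.1%) lay at a promoter, where intervals cover counting over sites only. The share was 77.1% (74.6% to 79.4%) for control peaks called in 1 or 2 treated lists and 8.45% (7.45% to 9.58%) for those called in none. It was 81.2% (79.7% to 82.7%) for sites called with all 3 treatments but not in control. The midpoint lay within 50 bp of a start site at 44.3% of shared sites and within 100 bp at 64.3%, with a median position 13 bp downstream, and 53.7% of midpoints fell in an annotated UTR. The plot of distances from the start site shows this as a narrow peak just past the start.

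**Figure D2:**
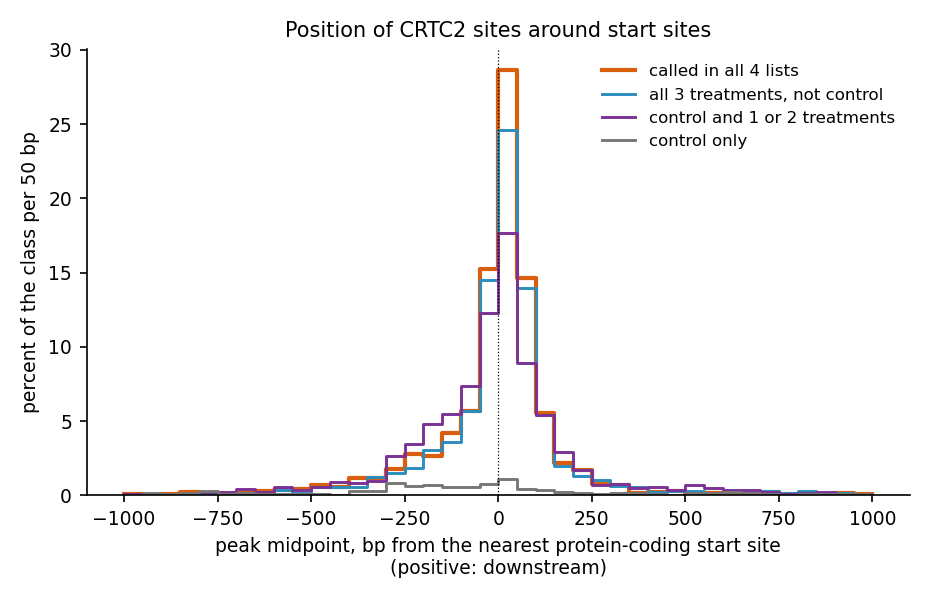
Distance of peak midpoints from the nearest protein-coding start site, in bins of 50 bp, as percent of each class of CRTC2 site. Shared sites (orange) have the tallest peak, just downstream of the start, and control peaks called in no treated list (gray) are nearly flat.

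The DNA under shared sites was rich in CpG. A window of 200 bp around the midpoint had a median GC content of 64.5% and 17 CpG dinucleotides, while windows 2000 bp away had 45% and 2. Control peaks called in no treated list had 40.5% and 1. Sites called with all 3 treatments but not in control had 65% and 17, values close to those of the shared sites.

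A CRE (TGACG, either strand) was present in 375 of the 1353 windows (27.7%, interval 25.4% to 30.2%). The same letters were found in 5.91% (4.78% to 7.30%) of windows 2000 bp from the same sites and in 18.3% of windows around all 54342 protein-coding start sites. Control peaks called in 1 or 2 treated lists had 19.5% (17.4% to 21.9%) and those called in none 5.75% (4.92% to 6.70%). Sites called only after treatment had 31.7% (29.9% to 33.5%), an interval that touches that of the shared sites. The full palindrome, which contains the short form, was present at 41 shared sites (3.03%, 2.24% to 4.09%), at 0.0739% of windows 2000 bp away and at 1.58% of all start sites. It was at 1.41% of control peaks called in 1 or 2 treated lists. Sites called with all 3 treatments but not in control had 4.52% (3.79% to 5.38%).

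CpG content was compared directly, since TGACG contains a CpG. Among windows with 12 to 22 CpG dinucleotides, a CRE was present in 29.96% (26.8% to 33.4%) of 731 shared sites. It was present in 20.1% (17.5% to 23.1%) of 790 start sites that lay in H3AcK27 regions of control cells and had no CRTC2 peak within 1000 bp. Of the 98 control peaks called in no treated list that fell in this range, 23.5% (16.2% to 32.8%) had a CRE, an interval that overlaps that of the shared sites. Read from the start sites, 10.7% of acetylated start sites with a CRE had a shared site within 100 bp, 7.002% of those without, and 14.9% of those with the palindrome. These shares were not matched on CpG content. Among start sites outside H3AcK27 regions the share was 0.0667%. Start sites of 1 gene often share a promoter and are not independent.

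Other motifs were compared in the same windows (see the plot of motif shares). The GC box GGGCGGG was present at 30.7% of shared sites and 25.1% of all start sites, and the ETS motif CCGGAAG at 14.0% and 8.54%. Sites called with all 3 treatments but not in control had 29.6% and 15.4% for these 2 motifs. Control peaks called in 1 or 2 treated lists had 26.2% and 16.5%, so neither motif was particular to the shared sites. In the windows matched on CpG content, the GC box was at 34.5% of shared sites and 39.1% of acetylated start sites with no CRTC2 peak nearby, the ETS motif at 18.5% and 10.5%, and the AP1 motif at 1.78% and 1.14%. The AP1 motif (TGAGTCA or TGACTCA) was present at 2.07% (1.44% to 2.97%) of shared sites, 3.99% (3.07% to 5.17%) of windows 2000 bp away and 2.68% of all start sites. Outside promoters, 6 of 141 shared sites had it (4.26%, 1.96% to 8.97%), while 93 of 494 sites called with all 3 treatments but not in control did (18.8%, 15.6% to 22.5%). The C/EBP motif TTGCNNAA was present at 4.07% of shared sites and 8.20% of windows 2000 bp away. The NF-κB motif, searched as a pair of strict 10-base forms, was found at 1 shared site (0.0739%). It was at 0.148% of windows 2000 bp away and 0.0865% of all start sites. A match of letters does not show binding.

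**Figure D3:**
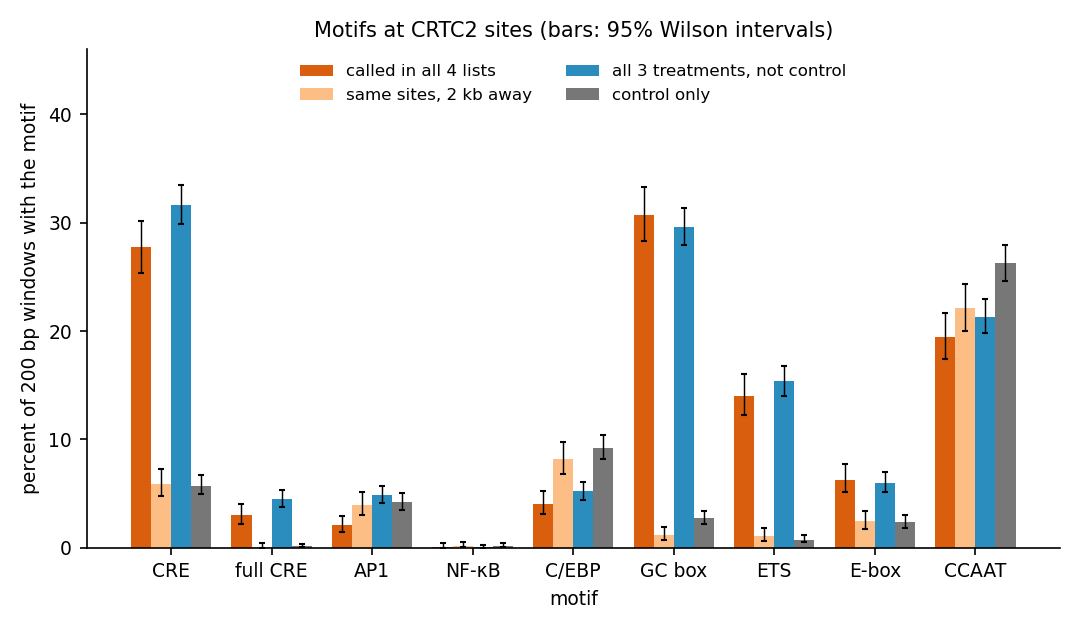
Percent of 200 bp windows that contain each motif on either strand, at shared sites, at windows 2000 bp from them, at sites called with all 3 treatments but not in control, and at control peaks called in no treated list. Bars carry 95% Wilson intervals. CRE, GC box and ETS motifs are more frequent at shared sites than 2000 bp away, and AP1 and C/EBP motifs are less frequent there.

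CRTC2 tags were close at shared sites with and without a CRE. The 375 sites with a CRE had medians of 13.2, 23.1, 30.6 and 22.3 normalized tags in control, FSK, TNFα and FSK/TNFα, and the 978 without had 13.2, 22.5, 33.2 and 21.4. The 41 sites with the palindrome had 15.9, 24.3, 28.0 and 24.2. At Ier2 the values were 27, 87, 99.3 and 48.4, and at Fscn1 39.2, 71.2, 92.2 and 63.8. Prkar1a, which encodes a regulatory subunit of PKA, was weaker, with 6.35, 21.9, 25.7 and 28, but each treated value was above its control value.

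Of the 141 shared sites outside protein-coding promoters, some lay at other annotated starts of transcription. Such a start was found at 29 of them for a further transcript of a coding gene, at 18 for a long non-coding RNA, at 16 for a small RNA and at 3 for a pseudogene. Of the 75 with no annotated start, 70 lay in H3AcK27 regions of control cells. A group of 21 lay within 300 bp of a short non-coding RNA gene, a window chosen after the data were seen. Of these, 12 were near small nuclear RNA genes, the RNA components of the spliceosome, and all 12 midpoints were downstream of the gene body. None of the 12 windows held a CRE. Near such genes lay 8.51% (4.94% to 14.3%) of shared sites outside promoters, 1.44% of control peaks called in 1 or 2 treated lists, 0.0416% of those called in none and 0.405% of sites called with all 3 treatments but not in control.

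Beside Rnu1a1, a U1 small nuclear RNA gene, a shared site centered 156 bp past the end of the gene (chr11:87423105-87423267) held 50.3 normalized tags in control, 97.9 with FSK, 103.9 with TNFα and 92.7 with FSK/TNFα. Within the same stretch of chromosome 11, the shared sites of the U3 genes Rnu3b3, Rnu3b4, Rnu3b1 and Rnu3b2 were centered 151, 147, 164 and 62 bp past the end of each gene. The Rnu3b3 site held 48.7, 98.6, 115.6 and 93.4. The site past Rnu2-10, a U2 gene, held 27, 68.1, 62 and 45.6, and that past Rnu5g, a U5 gene, held 22.8, 57.2, 52.5 and 49.7. Scarna2, which guides modification of spliceosomal RNAs, carried its site inside the gene, with 34.9, 98.6, 140.5 and 82.4. The site upstream of Snora24 in the host gene Snhg8 held 37.1, 96.1, 89.5 and 73.6. The U1, U2, U3 and U5 genes exist in near-identical copies. How the authors' alignment treated reads that map to several copies is not given in the sources used here. The position of the peaks beside the U1, U2, U3 and U5 genes and not over them is therefore uncertain.

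H3AcK27, a mark of active promoters and enhancers, was present at nearly every shared site. In control cells 1340 of 1353 (99.0%, 98.4% to 99.4%) lay in an H3AcK27 region, against 59.6% of all CRTC2 control peaks. The share was 97.0% for control peaks called in 1 or 2 treated lists, 22.1% for those called in none and 98.98% for sites called with all 3 treatments but not in control. With FSK the count was 1313 (97.0%, against 56.4%), with TNFα 1343 (99.3%, against 59.5%) and with FSK/TNFα 1331 (98.4%, against 57.2%). The H3AcK27 library of FSK-treated cells was the shallowest, with 9832884 tags. Acetylation density at shared sites had medians of 79.2, 82.4, 84.3 and 86.0 normalized tags per kb in control, FSK, TNFα and FSK/TNFα, and over all covered protein-coding start sites 66.0, 73.5, 71.1 and 73.8. Among the 1297 shared sites covered in all 4 lists, the median change from control was 0.07 on the log2 scale with FSK, 0.11 with TNFα and 0.12 with FSK/TNFα. The density was at least 2-fold higher than control at 7, 2 and 12 of them, against 0.831%, 0.193% and 1.01% of the 21768 start sites covered in all 4 libraries. It was at least 2-fold lower at 3, 1 and 4, against 0.289%, 0.023% and 0.482% of those start sites. Over the same treatments the median change in CRTC2 tags was 0.77, 1.27 and 0.70 on the log2 scale. Acetylation density was averaged over whole regions, with a median width of 3421.5 bp at shared sites in control. CRTC2 peaks of control cells were 162 bp wide, so the 2 changes are not directly comparable.

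Few shared sites carried a p65 peak. The p65 lists held 214 peaks in control, 2969 with FSK, 2404 with TNFα and 4221 with FSK/TNFα. Their shares of tags in peaks were 0.01%, 0.41%, 0.32% and 0.63%. The TNFα list was shorter than the FSK list, and a missing peak does not show that p65 was absent. p65 is the NF-κB subunit that enters the nucleus after TNFα. It was called at 2 shared sites in control cells (0.148%, against 0.0578% of all CRTC2 control peaks), 11 with FSK (0.813%, against 0.463%), 10 with TNFα (0.739%, against 0.501%) and 20 with FSK/TNFα (1.48%, against 0.732%). With TNFα and FSK/TNFα, the shares were 0.745% and 0.497% for control peaks called in 1 or 2 treated lists. They were 0.266% and 0.457% for control peaks called in none. Sites called with all 3 treatments but not in control had 1.06% and 2.13%. The 30 sites with p65 after TNFα or FSK/TNFα were different sites in the 2 lists. None held the strict NF-κB motif, which was at only 0.0865% of all start sites. Over the whole lists, 272 peaks overlapped, or 11.3% of the TNFα list and 6.44% of the FSK/TNFα list. In the other direction, shared sites took 0.416% of the 2404 p65 peaks of TNFα-treated cells and 0.474% of the 4221 peaks with FSK/TNFα.

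The p65 peaks at shared sites had a median of 14.9 normalized tags with TNFα (11.5 to 19) and 15.6 with FSK/TNFα (9.27 to 46.9), and the whole p65 lists had medians of 12.3 and 13.7. The genes named here were chosen after their values were seen. Lcn2, encoding lipocalin-2, had a p65 peak of 46.9 normalized tags with FSK/TNFα, at a shared CRTC2 site with 16.4, 30.4, 45 and 36.5 normalized tags. Ier3 had a p65 peak of 17.1 with FSK/TNFα at a CRTC2 site with 23.3, 90.6, 153 and 69.2. Csf1, the macrophage growth factor, had a p65 peak of 14.9 with TNFα at a site with 20.1, 51.1, 113.7 and 56. Cxcl5, a neutrophil chemokine, had p65 peaks of 10.8 with FSK and 19 with TNFα, and CRTC2 values of 12.7, 17, 54.4 and 43.7. Vcam1 had a p65 peak of 15.6 with FSK/TNFα. Each of these genes had a p65 peak in no more than 2 of the 4 lists.

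Shared sites stood at the promoters of 1341 of 21842 protein-coding genes (6.14%), and of 1329 of the 10820 genes whose start site lay in an H3AcK27 region of control cells (12.3%). Almost every shared site was acetylated, and lists of genes were therefore read against the second share (see the plot of gene lists). The lists were chosen with earlier results of these data known, so their counts are descriptions.

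**Figure D4:**
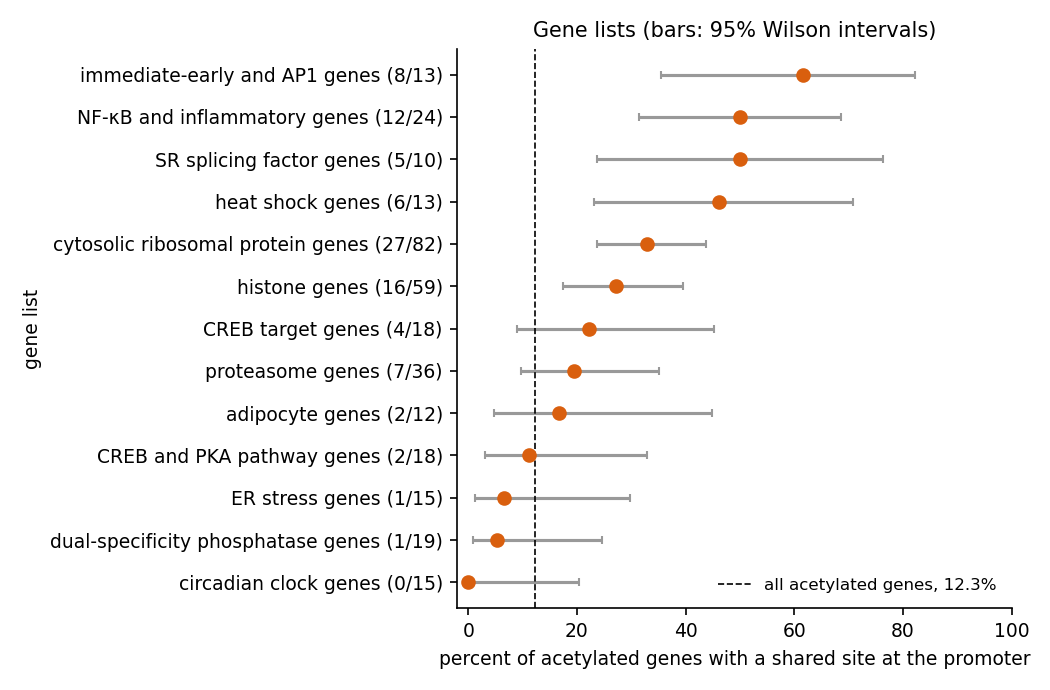
Percent of acetylated genes in each list with a shared site at the promoter, with 95% Wilson intervals; counts stand in parentheses. The dashed line marks 12.3%, the share over all acetylated genes. Immediate-early, NF-κB, splicing factor, heat shock, ribosomal protein and histone genes lie to the right of the line with intervals that do not reach it.

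Immediate-early genes, which respond to signals without new protein synthesis, had the largest share. A shared site was present at 8 of 13 acetylated genes (61.5%, 35.5% to 82.3%), namely Fos, Ier2, Ier3, Ier5, Jun, Junb, Jund and Myc. Their medians were 26.5, 69.7, 94.6 and 60.9 normalized tags in control, FSK, TNFα and FSK/TNFα. These medians include the Jun site, whose high input is described below, and lie above the 13.2, 22.5, 32.9 and 21.7 of all shared sites. Fos held 10.6, 28, 29.5 and 50.3 and was highest with FSK/TNFα. Jun held 238.3, 546.9, 721.5 and 500.8, but it lies in a 2 Mb bin of chromosome 4 where input tags were 12.6 times the median of bins, and its values are not comparable with those of other sites.

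NF-κB and inflammatory genes had a shared site at 12 of 24 acetylated genes (50%, 31.4% to 68.6%). They were Ccl2, Ccl7, Csf1, Cxcl5, Cxcl10, Il6, Irf1, Nfkb2, Nfkbie, Nfkbiz, Tnfaip2 and Vcam1. Medians were 13.8, 33.8, 54.4 and 43.9. The chemokine genes Ccl7 and Ccl2 lie next to each other on chromosome 11. Ccl7 held 24.4, 65.7, 109.2 and 68.2, and Ccl2 held 39.2, 58.4, 97.8 and 52.8, both highest with TNFα. Nfkbiz, which encodes an atypical nuclear IκB protein, held 16.9, 62.7, 48 and 44 and was highest with FSK. Il6, singled out after its values were seen, held 14.8, 34.1, 11 and 40.2 and was the only gene of the list whose site had fewer normalized tags with TNFα than in control. Cxcl10, also singled out in this way, held 12.7, 13.4, 45 and 14.5.

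**Figure D5:**
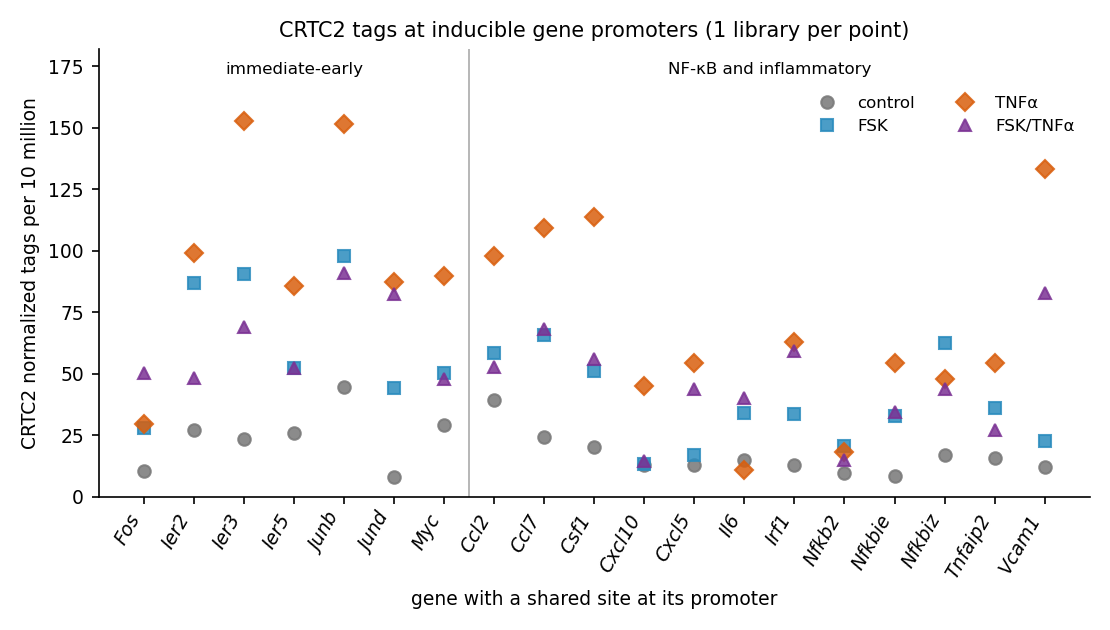
CRTC2 normalized tags at the shared promoter site of each immediate-early gene (left of the line) and each NF-κB and inflammatory gene (right), 1 library per point; Jun is left out because of its high input. The TNFα values (diamonds) reach 153 at Ier3 and are the highest at every gene shown except Fos, Il6, Nfkb2 and Nfkbiz.

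For CREB target genes the share had an interval that includes 12.3%. Of 18 acetylated CREB target genes, 4 had a shared site (22.2%, 9.001% to 45.2%): Fos, Ier2, Junb and Rgs2. Rgs2, a regulator of G protein signaling, held 18.5, 32.9, 32.9 and 28.9. In the same list of 21 genes, 6 promoters were called in control, 17 with FSK, 13 with TNFα and 17 with FSK/TNFα, and 6 were called with all 3 treatments but not in control. Over all 21842 genes the promoters called were 11.8% in control, 27.4% with FSK, 39.9% with TNFα and 29.1% with FSK/TNFα. Those called with all 3 treatments but not in control were 12.5%. Over the 10820 genes with an acetylated start site, the shares in the same order were 23.6%, 54.5%, 78.9%, 57.7% and 25%. Of 18 CREB and PKA pathway genes, 2 had a shared site (11.1%): Creb1, encoding CREB itself, with 19.1, 54.1, 44.2 and 35.8, and Prkar1a. Of 15 acetylated circadian clock genes, 0 had a shared site, with an interval up to 20.4% that includes 12.3%. Of 16 clock promoters, 7 were called with all 3 treatments, against 20.8% over all genes and 41.6% over genes with an acetylated start site. At Crem and Per1, as at Crtc2, Ep300, Stk11 and Tef, the promoter was called in all 4 lists but the peaks did not all overlap. Over all genes, 1817 promoters were called in all 4 lists, of which 1331 held a shared site and 486 did not.

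Lists of general cell functions also had shares above 12.3%. Cytosolic ribosomal protein genes had one at 27 of 82 acetylated genes (32.9%, 23.7% to 43.7%), with medians of 15.9, 29.2, 43.1 and 25.8 normalized tags. Rplp0 held 31.2, 54.1, 66.5 and 40.6, and Rps9 held 26.5, 52.3, 45 and 34.9. Heat shock genes, which encode protein-folding chaperones, had one at 6 of 13 (46.2%, 23.2% to 70.9%). Hsp90ab1 held 21.2, 65.7, 58.9 and 56.6, and Dnaja1 held 20.1, 57.8, 68 and 43.7. Among splicing factor genes of the SR family, 5 of 10 had a shared site (50%, 23.7% to 76.3%). Srsf2 had a pair of sites, the stronger with 19.6, 81.5, 112.2 and 74.8. Histone genes had one at 16 of 59 (27.1%, 17.4% to 39.6%), and several of these genes are near-identical copies whose reads are hard to place. H3f3b, a histone gene active outside S phase, held 24.9, 72.4, 115.2 and 70.4, and H2afx, encoding a histone that marks DNA breaks, held 31.2, 51.7, 94.8 and 50.3.

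In other lists the shares were near 12.3% or below it, with wide intervals. Proteasome genes had a shared site at 7 of 36 (19.4%, 9.75% to 35.0%). Adipocyte genes had one at 2 of 12 (16.7%, 4.70% to 44.8%): Fasn, the fatty acid synthase, with 20.7, 53.5, 73.7 and 49.4, and Irs2, an insulin receptor substrate, with 7.41, 31.6, 42.7 and 27.7. Among ER stress genes 1 of 15 had a site (6.67%), Ddit3, which encodes the factor CHOP, with 22.2, 60.2, 102.7 and 54.4. Among dual-specificity phosphatase genes 1 of 19 had a site (5.26%), Dusp5, with 12.7, 29.8, 22.7 and 19.5, whose overlap was 1 bp.

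Input tags, derived at called peaks, were unusually dense in 4 bins of 2 Mb on chromosomes 4 and 10, and 7 shared sites lay there. They were the sites of Jun, Nup107, Ppp1r12a, Ift74, Fggy, Caap1 and Cpsf6. Jun and Nup107 had the highest scores of the 7 in the control list. Nup107 held 227.2 normalized tags in control, 427.1 with FSK, 650.1 with TNFα and 360.3 with FSK/TNFα. Without these sites the medians of 13.2, 22.5, 32.9 and 21.7 were the same, and the highest value in control fell from 238.3 to 72.5.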

How the data were processed

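ChIP-seq libraries of CRTC2, p65 and H3AcK27 were prepared from 3T3-L1 adipocytes, 1 library per treatment. The authors' labels name STAR and HOMER and the mm10 build (GRCm38). How the aligner treated reads mapping to several places is not given in the sources used here. The authors called peaks with HOMER at a false discovery rate of 0.001, requiring 4-fold enrichment over input (Poisson p 0.0001) and over the surrounding 10000 bp. H3AcK27 regions were built from 500 bp windows.

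The deposited signal values are normalized tags, scaled by the authors to 10000000 tags per library. The deposited score takes no more than 1 tag from any position, without subtraction of input. The authors' fold over input was used to filter peaks and to derive input tags at each peak, as tags divided by fold. Input densities were built from these derived values over called intervals, and not from the input libraries directly. A deposited fraction, the focus ratio of each peak, was not used.

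Here, peaks were intersected by at least 1 bp and annotated to protein-coding start sites of GENCODE mouse release 21. Motif letters were searched on both strands of 200 bp around each midpoint in GRCm38 (patch 6), and in windows 2000 bp away. Python 3.11.15, pandas 2.3.3, scipy 1.17.1 and pysam 0.24.0 were used. Shares carry 95% Wilson intervals, which cover counting of sites only, and neighbouring sites are not independent. CRTC2 libraries held 16438040 to 31807394 tags and H3AcK27 libraries 9832884 to 27966129. With 1 library per group no test between treatments was made, and a 2-fold ratio served as the limit for a called difference. The share of a list's genes was read beside that of all genes.

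Named sites were the 15 with the smallest sum of score ranks over the 4 lists outside 2 Mb bins with more than 5 times the median input, the 3 highest and 3 lowest ratios per treatment with at least 20 normalized tags in the higher library, up to 4 per gene list by the same ranks, the 5 of best rank with p65 in both TNFα lists (0 were found), and the 2 of highest control score in high-input bins. List genes beyond the 4 of best rank, and the p65 genes, were chosen after their values were seen. A site carries the name of the gene with the nearest protein-coding start site or, where stated, of another transcript that starts there. The sites and the gene lists were chosen with earlier results of these data known. A few named sites are not reported here. The overlap scripts were tested on simulated data.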

Additional observations from a re-analysis of the deposited data

How the results depend on the processing

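Of 77 alternative values, 17 moved past the limits used, which were the interval of a share and 1.5 times a count. The other 60 stayed within those limits, but some changed in size. Requiring overlap of at least 50% of the shorter peak left 957 sites. With that rule also used for p65, a p65 peak with TNFα was at 0.418% of them. With midpoints within 100 bp as the rule for CRTC2 and p65, the share was 0.452%. Requiring at least 8-fold over input left 565 shared sites, of which 87.6% lay at promoters. That limit was also applied to the H3AcK27 and p65 lists, so regions and peaks under it were left out. Of the 565 sites, 89% lay in the remaining H3AcK27 regions of control cells and 0.354% at remaining p65 peaks with TNFα. Tags were at least 2-fold higher at 255, 387 and 233 sites with FSK, TNFα and FSK/TNFα, and 58 genes of the lists had a site. The promoter share was 93.3% with 2000 bp upstream to 500 bp downstream and 94.5% with start sites of all transcripts. A CRE was present in 15.1% of 100 bp windows and 44.4% of 400 bp windows, and the full palindrome in 3.03%. Dividing each ratio by the median ratio of all shared control peaks left 128, 162 and 125 sites at least 2-fold higher. With the score scaled to the library total, 884 sites were at least 2-fold higher with FSK, and the cause of that change was not tested. On that scale FSK, and not TNFα, was the highest library at most sites. Scaling the score to tags counted at most 1 time per position was an alternative chosen after seeing the data. No paired analysis was possible because each group had 1 library. The control list had the fewest peaks and a lowest score of 8, and sites under that limit are not in it.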

Other observations

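Shared sites were not spread evenly over chromosomes. Of acetylated genes, 21.1% (147 of 697, interval 18.2% to 24.3%) had a shared site on chromosome 5 and 18.7% (98 of 525) on chromosome 3, against 7.68% on chromosome 4 and 7.89% on chromosome 14. Untreated input density relative to the median was 1.19 on chromosome 5, 1.47 on chromosome 3, 0.767 on chromosome 4 and 0.877 on chromosome 14. Across 20 chromosomes, which share the same libraries, Spearman's rho between the share of genes and input density was 0.82 with untreated input and 0.80 with FSK input. The part of input density in the shares was not tested.

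Some shared sites lay in clusters, with 138 of 1353 (10.2%) within 20000 bp of another. The densest stretch held 7 sites between Rad51c and Tex14 (chr11:87404523-87471725), including the U1 and U3 genes described above, and a cluster of replication-dependent histone genes on chromosome 13 held 4 (chr13:23562241-23586100).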
